A study of Homo sapiens with 4 samples.

Results

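RB, p53 and the CDK inhibitors form the brake on entry into the cell cycle, and 9 genes of this brake were followed in the LASCPC-01 cell line with PBS or with fluoxetine. They were chosen by symbol as tumour suppressors and G1 regulators altered in neuroendocrine prostate cancer (NEPC), namely RB1, RBL1, MDM2, CDKN1A, CDKN1B, CDKN2A, CDKN2C, CCND1 and CCNE1. All 9 were among the 16376 genes of the deposited table, and all 9 were among the 12663 genes with a mean of at least 0.1 FPKM that were tested. FPKM is the number of sequenced fragments on a gene, scaled by gene length and by library size. Differences are given on the log2 scale as fluoxetine minus PBS, with their standard error (SE).

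LASCPC-01 is an NEPC cell line made by joint expression of NMYC and activated AKT1, and the labels give its genotype as WT. PBS was the control, and fluoxetine is an antidepressant that blocks serotonin reuptake. The samples were 2 PBS and 2 fluoxetine libraries, all labelled day 3 and all from this single cell line. The labels give no dose, the study's text describes an exposure shorter than day 3, and the titles of the fluoxetine samples name PP as the agent. Nothing in the labels says that the libraries of a group came from separate cultures, so the p-values measure only the spread between these libraries.

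RB1 and its relatives RBL1 (p107) and RBL2 (p130) hold E2F transcription factors in check. Cyclin D1 (CCND1) with CDK4 or CDK6, and then cyclin E1 (CCNE1) with CDK2, phosphorylate the RB family and release E2F, which turns on genes for DNA replication. CDK inhibitors oppose these kinases: the INK4 proteins p16 (CDKN2A) and p18 (CDKN2C) bind CDK4 and CDK6, whereas p21 (CDKN1A) and p27 (CDKN1B) bind cyclin and CDK together. p53 induces CDKN1A and also MDM2, whose product marks p53 for degradation. Combined loss of the RB and p53 functions is a known feature of NEPC. Much of this control acts on proteins, by phosphorylation and degradation, and RNA levels do not show it.

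The label of the cells was checked on 9 neuroendocrine markers, of which 5 had a mean of at least 0.1 FPKM. CHGA, CHGB, NEUROD1 and FOXA2 were below 0.1 FPKM on average. Library depth, recovered from the FPKM values themselves, was between 32873603 and 34831389 reads, if the smallest whole read numbers are the true ones. Across genes, which are not independent, replicates correlated at 0.993 (PBS) and 0.994 (fluoxetine) on the log2 scale.

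Of all genes tested, 30, or 0.237%, had an adjusted p under 0.05 from limma, with 3 higher and 27 lower in fluoxetine. None of the 9 genes was among them. At an unadjusted p under 0.05 there was 1 of the 9, CDKN2C, against 8.51% of all genes tested, and voom on the recovered reads also called 0 of the 9. The log2 differences of the 9 ran from -0.14 for MDM2 to 0.20 for CDKN2C, with a median of -0.02, beside -0.02 over all genes tested. The groups were apart for 4 of the 9 genes, beside 41.6% of all genes tested. CDKN1A and CDKN2C were higher in each fluoxetine library than in each PBS library, as were 16.7% of all genes tested, and RB1 and MDM2 were lower, as were 24.8%. A two-sided exact permutation test of 2 libraries against 2 cannot go below p = 0.33, so single genes were tested only in the fit across all genes.

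**Figure D1:**
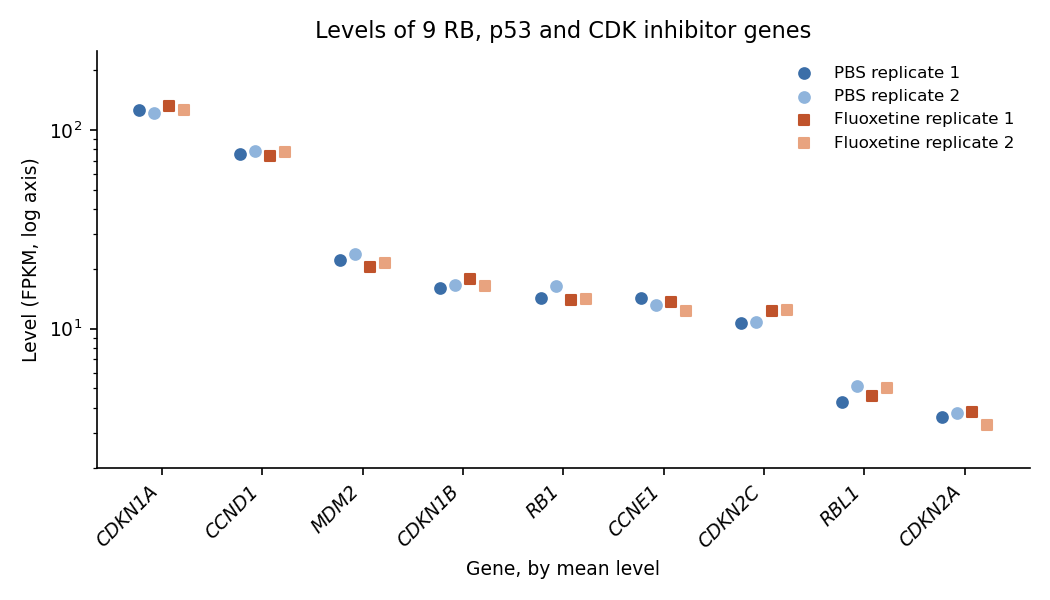
FPKM of each gene (log axis) in the 2 PBS libraries (circles) and the 2 fluoxetine libraries (squares), with genes ordered by mean level. CDKN1A, at 121.3 to 132.2 FPKM, was the highest and CDKN2A, at 3.27 to 3.81 FPKM, the lowest, and for each gene the 4 libraries lie close together.

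The genes differed far more from each other than between the treatments. CDKN1A had the highest mean level over the 4 libraries, 126.4 FPKM, above 96.6% of all genes tested. It was followed by CCND1 with 76.2 FPKM and MDM2 with 21.9 FPKM, and the ranges of these 3 genes over the libraries did not meet each other or that of the next gene. CDKN1B (16.7 FPKM), RB1 (14.7 FPKM), CCNE1 (13.3 FPKM) and CDKN2C (11.5 FPKM) came next, and neighbours among these 4 had overlapping ranges, although CDKN1B was above RB1 and RB1 above CCNE1 in all 4 libraries. RBL1 (4.76 FPKM) and CDKN2A (3.60 FPKM) were the lowest, with ranges apart from each other, and CDKN2A was still above 32.7% of all genes tested. These are levels per length and depend on the gene lengths the authors used.

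RB1, the founding pocket protein, lies on the plus strand at chr13:48303726-48599436 of GRCh38 in the GENCODE 29 annotation. It had 14.2 and 16.4 FPKM with PBS and 14.0 and 14.1 FPKM with fluoxetine. The groups did not overlap, but PBS replicate 1 lay close to them and PBS replicate 2 stood above the other 3. The group means were 15.3 ± 1.52 FPKM (SD, n = 2) and 14.1 ± 0.0907 FPKM (SD, n = 2), a log2 difference of -0.12 ± 0.09 (SE, adjusted p = 0.692 from limma). Without PBS replicate 2 it was -0.02, and without PBS replicate 1 it was -0.22. The 95% interval of the difference ran from 0.80-fold to 1.05-fold.

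RBL1, which encodes p107 and is itself a known E2F target, lies on the minus strand at chr20:36996349-37095995. Its RefSeq promoter window, from 250 bases before the start to 50 after it, held 2 of the 4 spellings searched for an E2F site, TTTCCCGC, TTTCGCGC, TTTGCCGC and TTTGGCGC on either strand. MDM2 held 1 such match, and none was found in the windows of RB1, CDKN1A, CDKN1B, CDKN2A, CDKN2C and CCNE1. Of all 35116 promoter windows, 3.31% held a match, and of the 10250 windows of genes tested here, 5.38%. The stretches around the matches are shown because RBL1 carries its pair side by side, just before the start of transcription, and the capitals mark the matched letters.
RBL1, chr20:37096000-37096029, minus strand, GRCh38.p14: gcagatTTTCGCGCgcTTTGGCGCaggtgg
MDM2, chr12:68807929-68807958, plus strand, GRCh38.p14: ggagtgtcacaGCGCCAAAccttgctggct
In RBL1 the matches began 26 and 16 bases before the start, and in MDM2 the match was on the opposite strand, with its first base in the window 232 bases before the start. The RefSeq windows of RB1, CDKN1A and CDKN1B lie inside the GENCODE 29 spans of these genes, past their first annotated base, so they do not show the outermost start. The RB1 window, at chr13:48476200-48476499, lies much farther past that base, 48303726, than the windows of CDKN1A and CDKN1B do past theirs. The CDKN2A window lies at the outermost annotated start of that gene, so its other first exon was not searched. A match describes letters in the window and not a bound site. The lack of a match covers only these exact spellings in 1 window per gene, and does not mean that the gene lacks E2F sites.

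With its pair of E2F matches, RBL1 had 4.28 and 5.13 FPKM with PBS and 4.60 and 5.03 FPKM with fluoxetine. The fluoxetine values lay between the PBS values. The log2 difference of 0.04 ± 0.12 (SE, adjusted p = 0.950 from limma) had a 95% interval from 0.86-fold to 1.23-fold. RB1 was 3.33 and 3.20 times RBL1 in the PBS libraries and 3.05 and 2.81 times in the fluoxetine libraries, and this difference in ratio was not tested. RBL2, the third pocket protein, had 21.3 and 19.7 FPKM with PBS and 19.4 and 20.8 FPKM with fluoxetine, so its libraries overlapped and its level per length was above that of RB1 in every library.

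CCND1 (cyclin D1), at chr11:69641087-69654474 on the plus strand, had 75.7 and 78.0 FPKM with PBS and 73.6 and 77.5 FPKM with fluoxetine. The groups overlapped, and the log2 difference was -0.02 ± 0.07 (SE, adjusted p = 0.944 from limma). Its 95% interval, from 0.88-fold to 1.09-fold, was the narrowest of the 9 genes on the log2 scale. CCND1 was the main D-type cyclin RNA in these cells: CCND3 had between 17.7 and 19.2 FPKM, and CCND2 was listed at 0 in both PBS libraries and reached no more than 0.0354 FPKM with fluoxetine.

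CCNE1 (cyclin E1), at chr19:29811898-29824308 on the plus strand, had 14.2 and 13.2 FPKM with PBS and 13.6 and 12.3 FPKM with fluoxetine. The groups overlapped here too. The group means were 13.7 ± 0.700 FPKM (SD, n = 2) and 12.9 ± 0.952 FPKM (SD, n = 2), and the log2 difference of -0.08 ± 0.09 (SE, adjusted p = 0.786) had a 95% interval from 0.83-fold to 1.08-fold. It was -0.16 without fluoxetine replicate 1 and -0.0082 without fluoxetine replicate 2. CCNE2, its close relative, had a lower level of 5.38 to 6.28 FPKM.

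**Figure D2:**
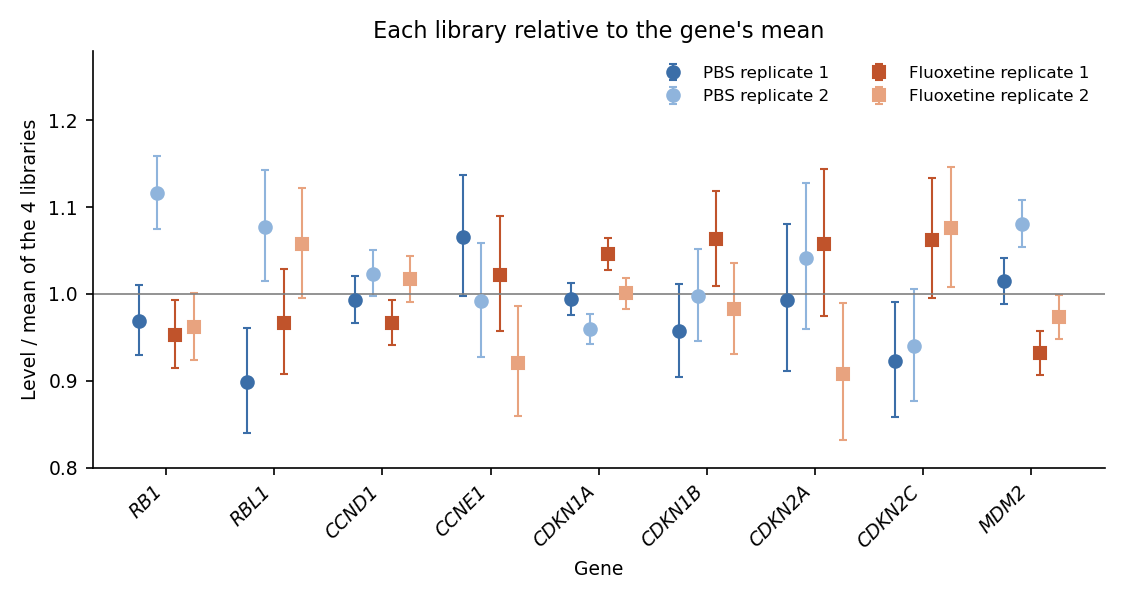
Level of each gene in each library divided by its mean over the 4 libraries. Circles are PBS and squares fluoxetine, and the bars are exact 95% Poisson intervals from the recovered reads, which cover counting error only. CDKN2C is the gene whose 2 fluoxetine libraries sit close together above its 2 PBS libraries, while RB1 has 1 PBS library above the other 3.

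CDKN1A encodes p21, the main CDK inhibitor under the control of p53, and lies at chr6:36676460-36687339 on the plus strand. Its level was 125.6 and 121.3 FPKM with PBS and 132.2 and 126.5 FPKM with fluoxetine. All 4 values were high, and the lower fluoxetine library was only just above the higher PBS library. The log2 difference was 0.07 ± 0.07 (SE, adjusted p = 0.785 from limma), with a 95% interval from 0.94-fold to 1.17-fold. With 1 library left out it ran from 0.04 to 0.10, and it was 0.02 with TPM and 0.01 with quantile normalization. CDKN1A rested on 11217 to 12497 reads per library, the most of the 9 genes.

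CDKN1B (p27), at chr12:12715058-12722371 on the plus strand, had 16.0 and 16.6 FPKM with PBS and 17.7 and 16.4 FPKM with fluoxetine. The groups overlapped, and the log2 difference was 0.06 ± 0.08 (SE, adjusted p = 0.827), with a 95% interval from 0.92-fold to 1.18-fold. It was 0.0075 without fluoxetine replicate 1 and 0.12 without fluoxetine replicate 2. In each library CDKN1A was between 7.29 and 7.87 times CDKN1B. CDKN1C, which encodes p57, the remaining inhibitor of this family, had 8.12 to 9.03 FPKM.

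CDKN2C, the gene of p18, lies at chr1:50960745-50974633 on the plus strand and had the largest difference of the 9. It had 10.6 and 10.8 FPKM with PBS and 12.2 and 12.4 FPKM with fluoxetine. The libraries of each group were close together, at 10.7 ± 0.141 FPKM (SD, n = 2) and 12.3 ± 0.105 FPKM (SD, n = 2), and the groups did not overlap. Its log2 difference was 0.20 ± 0.08 (SE, 95% interval from 1.01-fold to 1.30-fold), with an unadjusted p of 0.0356 and an adjusted p of 0.552 from limma over all genes tested. It did not pass the threshold, and 812 genes had a lower p. Its spread between replicates, 1.31% of the mean for PBS and 0.854% for fluoxetine, was smaller than the counting error of up to 3.62% from its 765 to 945 reads. With any 1 library left out the log2 difference stayed between 0.18 and 0.21. It was 0.15 with TPM and 0.16 with the gene length trend removed. The unadjusted p from limma was 0.0224 with quantile normalization and 0.0547 with the gene length trend removed. With voom on the recovered reads it was 0.0666, so its place under 0.05 depended on the setting. Over the alternatives that kept all 4 libraries, the adjusted p ranged from 0.422 to 0.710.

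CDKN2A, at chr9:21967753-21995301 on the minus strand, encodes p16 and, from another first exon read in another frame, the p53 pathway protein ARF. The table has 1 row for the gene, so the RNAs of p16 and ARF cannot be told apart. It had 3.58 and 3.75 FPKM with PBS and 3.81 and 3.27 FPKM with fluoxetine. The fluoxetine libraries lay on either side of the PBS libraries. The log2 difference was -0.05 ± 0.12 (SE, adjusted p = 0.922), and the 95% interval from 0.80-fold to 1.16-fold was the widest of the 9 on the log2 scale, on 527 to 613 reads per library. CDKN2C was 2.97 and 2.89 times CDKN2A with PBS and 3.22 and 3.79 times with fluoxetine. Of the other INK4 genes, CDKN2D (p19) had 8.26 to 9.29 FPKM and CDKN2B (p15) only 0.0578 to 0.216 FPKM.

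MDM2, the ubiquitin ligase of p53 and itself a p53 target, lies at chr12:68808176-68850686 on the plus strand. It had 22.2 and 23.7 FPKM with PBS and 20.4 and 21.3 FPKM with fluoxetine. Both fluoxetine libraries were lower, with means of 23.0 ± 1.02 FPKM (SD, n = 2) for PBS and 20.9 ± 0.642 FPKM (SD, n = 2) for fluoxetine. The log2 difference of -0.14 ± 0.08 (SE, adjusted p = 0.619) did not pass the threshold, with a 95% interval from 0.81-fold to 1.02-fold. With the trend on gene length taken out of every library it was -0.06. The same step moved RBL1 from 0.04 to 0.10, CCND1 from -0.02 to -0.06, CCNE1 from -0.08 to -0.12 and CDKN1B from 0.06 to 0.04. It also moved CDKN2C from 0.20 to 0.16, RB1 from -0.12 to -0.08, CDKN2A from -0.05 to -0.02 and CDKN1A from 0.07 to 0.05. Gene length moved with the libraries. Its correlation, across genes, with the log2 level relative to the 4-library mean was lowest in fluoxetine replicate 1, at -0.282, and highest in PBS replicate 2, at 0.187, while PBS replicate 1 had 0.0554 and fluoxetine replicate 2 had 0.0456. The part of gene length in the difference of MDM2 was not tested. CDKN1A and MDM2 are both p53 targets. CDKN1A was 5.65 and 5.12 times MDM2 with PBS and 6.47 and 5.93 times with fluoxetine, a difference that was not tested. With CDKN1A higher and MDM2 lower in each fluoxetine library, these ratios had to be apart. They add nothing to the values of the separate genes. MDM4, the relative of MDM2 that also binds p53, had 7.18 and 6.90 FPKM with PBS and 6.63 and 6.25 FPKM with fluoxetine.

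**Figure D3:**
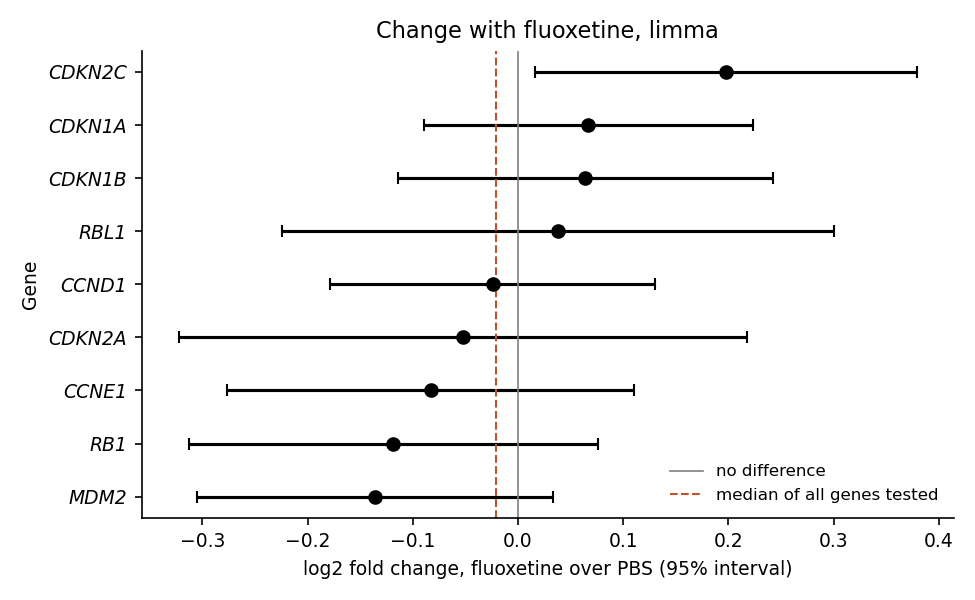
log2 difference of each gene, fluoxetine over PBS, from limma on log2(FPKM + 0.1), with 95% intervals as bars. The dashed line is the median of all genes tested, and 8 of the 9 intervals include 0, with CDKN2C reaching down to 0.02.

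The wider pathway was read from 7 lists holding 94 genes, of which 93 were tested. None had an adjusted p under 0.05 from limma, 6 had an unadjusted p under 0.05 (6.45%, beside 8.51% of all genes tested), 3 higher and 3 lower, and voom on the recovered reads called none. The median log2 difference over the 93 genes was -0.01, beside -0.02 over all genes tested.

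The partner kinases of the D-type cyclins had the lowest p among the 9 tested G1 cyclins, CDKs and CDK activators. CDK4 had 81.5 and 70.8 FPKM with PBS and 97.5 and 87.3 FPKM with fluoxetine, with a log2 difference of 0.28 (adjusted p = 0.409). CDK6 had 16.9 and 18.1 FPKM with PBS and 14.1 and 15.9 FPKM with fluoxetine, with a log2 difference of -0.23 (adjusted p = 0.536). Both pairs of groups were apart, in opposite directions, and neither gene passed the threshold. The groups were also apart for 41.6% of all genes tested, and these genes were named for their low p. The list had a median of 0.03, with 5 genes above 0 and 4 below. Of the 4 other CDK inhibitors, CDKN3, a phosphatase that acts on CDK2, had the lowest p at a mean of at least 1 FPKM, with a log2 difference of -0.13 (adjusted p = 0.641), followed by CDKN2D with 0.01 (adjusted p = 0.984).

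Among the 16 partners of the pocket proteins, which are the E2F and DP factors and the DREAM complex, 9 had a log2 difference above 0 and 7 below, with a median of 0.02. LIN54, the DNA-binding subunit of DREAM, had -0.22 (adjusted p = 0.623), and E2F7, a repressor E2F, had -0.16 (adjusted p = 0.686). The log2 differences of the 24 E2F target genes had a range from -0.15 to 0.12, with a median of 0.03. At its ends were CDT1, which licenses replication origins, with -0.15 (adjusted p = 0.586), and CCNE2 with 0.12, while MCM2, a subunit of the replicative helicase, had 0.11 (adjusted p = 0.668). Rescaling to TPM shifted the median of all genes tested to -0.07, and with it the medians of the E2F targets (-0.02), the G1 list (-0.02) and the pocket protein partners (-0.03) fell below 0.

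The 26 p53 target genes other than CDKN1A and MDM2 had 10 values above 0 and 16 below, with a median of -0.05, and over all genes tested 7156 of 12663 were below 0. The median was -0.10 with TPM and -0.02 with the gene length trend removed. GDF15, a secreted stress cytokine, had 3.82 and 5.004 FPKM with PBS and 3.23 and 2.84 FPKM with fluoxetine, with a log2 difference of -0.52 (adjusted p = 0.329). SESN2, a stress sensor that restrains mTORC1, had 16.5 and 17.1 FPKM with PBS and 13.9 and 14.5 FPKM with fluoxetine, with a log2 difference of -0.24 (adjusted p = 0.462). Both were lower in each fluoxetine library, as were 24.8% of all genes tested, and both also respond to stress pathways other than p53. Of the 26 targets, 4 had an unadjusted p under 0.05 (15.4%, beside 8.51% of all genes tested). TRIAP1 and AEN were the other 2 of these and had log2 differences of 0.23 and 0.20, so the targets at this level were split between the directions.

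Of the 11 regulators of p53, ATR, a kinase of the response to replication stress, had -0.23 (adjusted p = 0.579) and ATM, the kinase of the response to double-strand breaks, had -0.15 (adjusted p = 0.686). The median was -0.02. The 8 ubiquitin ligase subunits that act on p27 and the G1 cyclins had a median of 0.004, with RBX1, the RING subunit of these ligases, at 0.21 (adjusted p = 0.582) and FBXW7, which recognises cyclin E, at -0.16 (adjusted p = 0.632). The groups overlapped for RBX1 and were apart for FBXW7, as they were for 41.6% of all genes tested.

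Each of the 9 genes had at least 527 recovered reads in every library. The counting error at the fewest reads ran from 0.944% for CDKN1A to 4.36% for CDKN2A. In bulk RNA such as this, a change in the share of cells in a given phase and a change in RNA per cell cannot be told apart. Several of the genes overlap others in the annotation, among them CCND1 with LTO1, RB1 with LPAR6 and RCBTB2, MDM2 with CPM, CDKN1A with DINOL and CDKN2A with CDKN2B-AS1, all on the opposite strand. The labels name a stranded kit and the study's methods another kit, and whether the counting used strand is not given in the sources used here, so antisense reads cannot be told apart. LTO1 had 8.17 to 9.04 FPKM, RCBTB2 at most 0.313 FPKM and CPM at most 0.136 FPKM.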

How the data were processed

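The RNA-seq libraries (2 PBS, 2 fluoxetine) were paired-end. The authors deposited FPKM in 1 column for each library. The submitters' processing notes list fastp, HISAT2, HTSeq and GRCh38, and the annotation is not given in the sources used here. The authors name DESeq2, which was not run here because it needs counts. Instead, limma 3.58.1 in R 4.3.3 (lmFit, eBayes with a variance trend) was fitted to log2(FPKM + 0.1) for every gene averaging 0.1 FPKM or more, and p-values were adjusted over all these genes (Benjamini-Hochberg). This scale understates changes of low genes.

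Whole reads were recovered as the smallest whole numbers whose ratios gave the FPKM ratios, to 0.004 beyond digit rounding, for 16002 of 16080 genes above 0. The depth was the one on which most genes (48) met when GENCODE 29 exon lengths were used. With multiples of the read numbers up to 6 allowed, 53 genes met on a depth of 65747206 for PBS replicate 1 in place of 32873603, all of them by even multiples. The lower depth was kept after this was seen, with an earlier estimate of the depth of these libraries and the implied gene lengths in view. The true depth and reads can be multiples of those given, which would make the counting errors smaller. The main limma fit does not use the reads, whereas voom and the gene length trend do. Recovery and limma were tested on simulated data, and the outcomes are not given here. The recovery test drew reads around the recovered ones and scored only the smallest whole numbers. It therefore cannot show whether the true reads are multiples of them. The limma test gave every gene the same relative spread beyond counting error. Python 3.11.15 and matplotlib 3.10.9 made the tables and figures. Coordinates are GENCODE 29, and promoter windows are from RefSeq (GRCh38.p14), with a window for 8 of the 9 genes.

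The 9 genes and the lists were chosen with earlier results of these data known. From each list, called genes were named, or otherwise the 2 with the lowest unadjusted p at a mean FPKM of at least 1. Relatives of the 9 genes, list extremes, the p53 targets TRIAP1 and AEN, and the ratios were added after their values were seen. Alternatives covered the pseudocount (1, 0.01), the filter (none, 1 FPKM), TPM, quantile normalization, median centring, other moderation, the replicate block and each library left out. Voom on genes with at least 10 recovered reads, and removal of the gene length trend (lowess, span 0.3), were added after seeing the data.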

Additional observations from a re-analysis of the deposited data

How the results depend on the processing

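None of the 9 genes and none of the 93 tested pathway genes had an adjusted p under 0.05 under any alternative, and the smallest for the 9 was 0.422 (CDKN2C, replicate block) and for the pathway genes 0.0728 (CDK4, voom on the recovered reads). Of 144 log2 differences of the 9 genes under the alternatives, 137 kept their direction. The 7 that did not belong to genes near 0: RBL1 (-0.0088 with TPM), CDKN2A (0.0065 with quantile normalization), CCND1 (0.0022 with median centring), and, with 1 library left out, ranges from -0.090 to 0.17 for RBL1 (-0.090 without PBS replicate 1 and -0.025 without fluoxetine replicate 2), from -0.16 to 0.054 for CDKN2A (0.054 without fluoxetine replicate 2) and from -0.061 to 0.013 for CCND1 (0.013 without fluoxetine replicate 1).

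Genes called over the whole table numbered 16 with quantile normalization, 58 with voom on the recovered reads and 64 with the replicate block. There were 0 from limma without the filter on low values (1069 at an unadjusted p under 0.05) and 0 without the variance trend (933). With 1 library left out there were 2 to 12, where the lone sample is assumed to vary like the other group, and the smaller number of samples is part of that setting. Without PBS replicate 1, PBS replicate 2, fluoxetine replicate 1 and fluoxetine replicate 2 these were 2, 3, 9 and 12. Apart from that, the cause was not tested. Same-numbered libraries share only a number in the labels, and their deviations from the group means correlated at 0.0351 (0.101 for genes averaging at least 10 FPKM). Depth left a counting error of at most 4.36% for the 9 genes.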
